A study of Homo sapiens with 4 samples.

Results

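The comparison described here sets 22Rv1 cells carrying a short hairpin RNA against TNFRSF13B (shTNFRSF13B) against 22Rv1 cells carrying the empty lentiviral vector, on 1 oligonucleotide array per condition. Every gene named by a probe set with a single gene symbol was a member, which gave 17687 genes from 17709 of the 24351 probe sets in the table, and a gene with several probe sets was taken at the brightest. 22Rv1 is an established human prostate cancer line that was grown from a tumour xenograft and expresses the androgen receptor. The same pair of constructs was measured in PC-3, an established line from a bone metastasis of prostate cancer, and those 2 arrays are given beside the 22Rv1 values where they help. In both lines the construct came by lentivirus and the cells were selected to carry it stably, so all 4 arrays are of transduced cells, and the control carried no hairpin rather than a hairpin without a target. With 1 array per condition no test could be made, no difference has a replicate check, and each value below is a description of these arrays.

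TNFRSF13B encodes TACI (CD267), a receptor of the tumour necrosis factor receptor superfamily that is best known from B cells. Its ligands are BAFF (TNFSF13B) and APRIL (TNFSF13), and the bound receptor recruits TRAF adaptor proteins, through which the classical and the alternative NF-kappaB pathways and MAP kinases are switched on. The question put to the arrays was which transcripts differ once TACI is lowered in prostate cancer cells. TNFRSF13B had a log2 value of 5.23 with shTNFRSF13B and 7.43 with the empty vector after quantile normalization, a log2 ratio of -2.20. As deposited its values were 5.63 and 6.08 for these arrays and its ratio was -0.45. The hairpin's target thus had the lower value with shTNFRSF13B on either scale, but the size of the difference depended on the scale.

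The empty vector array of 22Rv1 had another distribution of values than the other 3 arrays, and this sets how far every ratio can be read. Its deposited median was 5.33, whereas the shTNFRSF13B array of 22Rv1 had 6.97 and the PC-3 arrays had 7.01 with shTNFRSF13B and 6.93 with the empty vector. The median deposited log2 ratio of all genes in 22Rv1 was 1.22. It was not a constant shift, since the median ratio was 0.38 in the dimmest decile of the genes, 1.76 in the seventh and 1.16 in the brightest. The 8 spike-in probe sets, which detect transcripts added to every sample, had deposited ratios between -0.13 and 0.56 with a median of 0.07, and after quantile normalization their median was -1.67. On the scale of the spike-ins the typical gene was therefore brighter with shTNFRSF13B, and on the scale of the array's own distribution it was equal, with a median ratio of -0.06. Whether the amount or the quality of the hybridised RNA differed was not tested. Below, levels and ratios are quantile-normalized log2 values, in which the 4 arrays share a single distribution, with shTNFRSF13B minus empty vector as the ratio. Deposited medians and counts are given for the main lists and deposited ratios for part of the genes. For a gene with no deposited ratio beside it, the deposited ratio is typically higher by more than 1 log2 unit. This does not hold for the brightest genes, whose deposited ratio can be close or lower. Cyclin D1 (CCND1), for example, had -0.33 and as deposited -1.73, and SLC7A5 had -3.13 and as deposited -3.32.

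**Figure D1:**
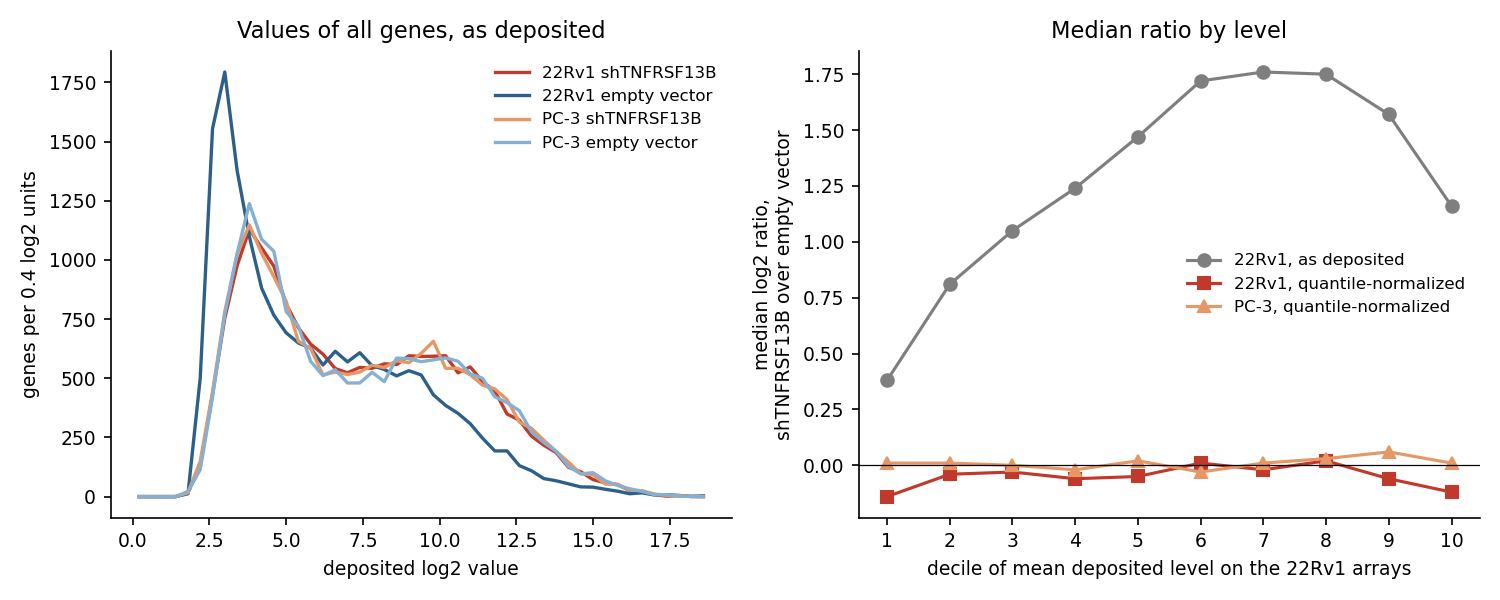
Left, number of genes per 0.4 log2 units (y) against the deposited log2 value (x), with 1 line per array, where the 22Rv1 empty vector array (dark blue) is shifted to lower values. Right, median log2 ratio of shTNFRSF13B over empty vector (y) in each decile of the mean deposited level on the 22Rv1 arrays (x), which reaches 1.76 as deposited (grey) and lies between -0.14 and 0.02 after quantile normalization (red).

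The labels were checked against marker genes. STEAP2, a luminal prostate metalloreductase, had 15.21 with shTNFRSF13B and 14.55 with the empty vector, and FOLH1, which encodes prostate-specific membrane antigen, had 15.35 and 14.83 on the same arrays. In PC-3, STEAP2 had 10.30 with shTNFRSF13B and 9.11 with the empty vector, and FOLH1 had 3.75 and 3.25. The luminal markers HOXB13, TMPRSS2 and SLC45A3 did not set 22Rv1 above PC-3 on all arrays. HOXB13, a homeobox factor of the prostate, had 9.50 with shTNFRSF13B and 9.09 with the empty vector in 22Rv1, and 12.03 and 11.74 in PC-3, where it was higher. TMPRSS2, an androgen-regulated protease, had 6.09 and 7.50 in 22Rv1 (0.32 as a deposited ratio) and 6.72 and 5.57 in PC-3, and SLC45A3 had 6.35 and 5.50 in 22Rv1 and 6.27 and 5.64 in PC-3. KRT8 and the pioneer factor FOXA1 were bright on both 22Rv1 arrays, whereas the secreted kallikreins KLK2 (6.93 with shTNFRSF13B, 5.93 with the empty vector) and KLK3 (7.12 and 7.74) were low on both. In PC-3, KRT8 (14.31 and 12.94) and FOXA1 (12.42 and 11.05) were lower than in 22Rv1 but bright as well. KLK2 (5.21 and 5.41) and KLK3 (6.46 and 6.61) were low in PC-3 too. VIM and CAV1 (both higher as deposited, by 0.59 and 0.49), CAV2, ITGA3 and AXL, which mark PC-3, lay between 4.40 and 6.11 with shTNFRSF13B and between 5.12 and 7.24 with the empty vector. The other 2 markers of that list differed strongly and in opposite directions, KRT7 at 15.77 with shTNFRSF13B against 9.80 with the empty vector, and CD44 at 8.26 against 11.33. Of the markers of leukocytes and endothelium none exceeded 5.11 with shTNFRSF13B or 5.68 with the empty vector, and all 4 basal epithelial markers lay under 4 on both arrays. Of 7 fibroblast markers COL1A2 had 8.29 with shTNFRSF13B and 5.79 with the empty vector and LUM had 6.18 and 7.45 (0.47 as a deposited ratio), while COL1A1, DCN, PDGFRA, PDGFRB and FBLN1 lay under 5 on both arrays. Of 3 erythroid markers HBA1 had 8.31 and 8.28, and HBB and ALAS2 were under 4 on both.

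After quantile normalization 2345 genes were at least 2-fold higher with shTNFRSF13B, 13.3% of all genes, and 2736 were at least 2-fold lower, 15.5%. As deposited 10320 genes (58.3%) were at least 2-fold higher and 356 (2.01%) lower. As deposited, all of these 2345 genes kept a ratio of at least 2-fold. The deposited ratios were shifted upward, with a median of 1.22 over all genes, so this overlap was largely set in advance. Of the 2736 lower genes, 338 (1.91% of all genes) were at least 2-fold lower as deposited too, and 1291 had a deposited ratio above 0. The genes lower on both scales are therefore a small group, and their number or the deposited counts are given for most lists with many lower genes. At 8-fold, 94 genes were higher and 211 lower after quantile normalization, and at 32-fold 12 were higher and 37 lower. In PC-3 1039 genes (5.87%) were at least 2-fold higher and 751 (4.25%) lower on the same scale. The interquartile range of the log2 ratio ran from -0.67 to 0.57 in 22Rv1 and from -0.33 to 0.33 in PC-3.

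Olfactory receptor genes, which most tissues do not express, gave a reference for dim values. The 95th percentile of 348 of them was 4.93 on the shTNFRSF13B array and 4.85 on the empty vector array, and a ratio whose lower value lies under this mark is partly a ratio against background. Of these 348 genes, 26 were at least 2-fold higher and 29 at least 2-fold lower, so a 2-fold difference also occurs among dim genes on this pair of arrays. Above the mark on both arrays stood 10561 genes, while 650 passed it with shTNFRSF13B only and 1018 with the empty vector only.

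The 25 highest ratios, taken over genes that exceeded the median of an array in 1 or both conditions, ran from 8.08 to 4.27, and their deposited ratios from 9.09 to 5.32. RASSF6, of a family of Ras-binding scaffold proteins of the Hippo pathway, led at 11.79 with shTNFRSF13B against 3.71 with the empty vector. AOX1, a molybdenum-containing aldehyde oxidase, followed at 11.94 against 4.10, and GABRA2, a subunit of the GABA-A receptor, at 14.77 against 7.57. The sodium-phosphate cotransporter SLC20A1 had 15.59 against 9.11, and keratin 7 (KRT7), a keratin of simple epithelia, had 15.77 against 9.80. RASSF6 and AOX1 were thus under the dim reference with the empty vector, whereas the other 3 were above it on both arrays. For RASSF6 and AOX1 the ratio against the dim reference of the empty vector array, in place of their own value there, was 6.94 and 7.09. As deposited the ratios were 9.09 for RASSF6, 8.96 for AOX1, 8.79 for GABRA2, 7.99 for SLC20A1 and 7.44 for KRT7.

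Schlafen and APOBEC3 genes, set out after their values were seen, had 3 members among the 25. SLFN13, of the Schlafen family of tRNA-cleaving proteins, had 9.32 with shTNFRSF13B and 2.61 with the empty vector, and SLFN11, a Schlafen protein known for sensitising cells to DNA damage, had 10.48 and 5.82. The other 4 Schlafen genes measured did not reach 2-fold in either direction. APOBEC3D, a cytidine deaminase that edits single-stranded DNA, had 8.69 with shTNFRSF13B and 2.87 with the empty vector, and its relative APOBEC3B had 8.89 and 6.69. Of 7 APOBEC3 genes these 2 were at least 2-fold higher and 1 was at least 2-fold lower. These family members resemble each other in sequence, so a probe set may report more than its own gene.

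The rest of the 25 were of mixed function. RARB, the retinoic acid receptor beta, had 10.84 with shTNFRSF13B and 5.32 with the empty vector. BMP6, a ligand of the bone morphogenetic protein family, had 10.26 and 5.58, and PMEPA1, an androgen- and TGF-beta-induced inhibitor of SMAD signalling, had 13.47 and 9.01. BARD1, the partner of BRCA1 in an E3 ubiquitin ligase for double-strand break repair, had 11.26 and 6.14. SMYD2, a protein lysine methyltransferase, had 10.63 and 5.11, and the oncofetal RNA-binding protein IGF2BP1 had 8.66 and 3.64. SLIT1 (an axon guidance ligand), PTPRB (a receptor tyrosine phosphatase of endothelium), KCNJ8 (a potassium channel), GAL (the neuropeptide galanin) and UGT2B4 (a glucuronosyltransferase) were also among the 25. Of these 25 genes, 10 had an empty vector value at or under the dim reference, 11 were under 6 on both PC-3 arrays, and 2 (KRT7 and MISP, an actin-bundling spindle protein) were at least 2-fold lower with shTNFRSF13B in PC-3, while the other 23 stayed within 2-fold there.

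**Figure D2:**
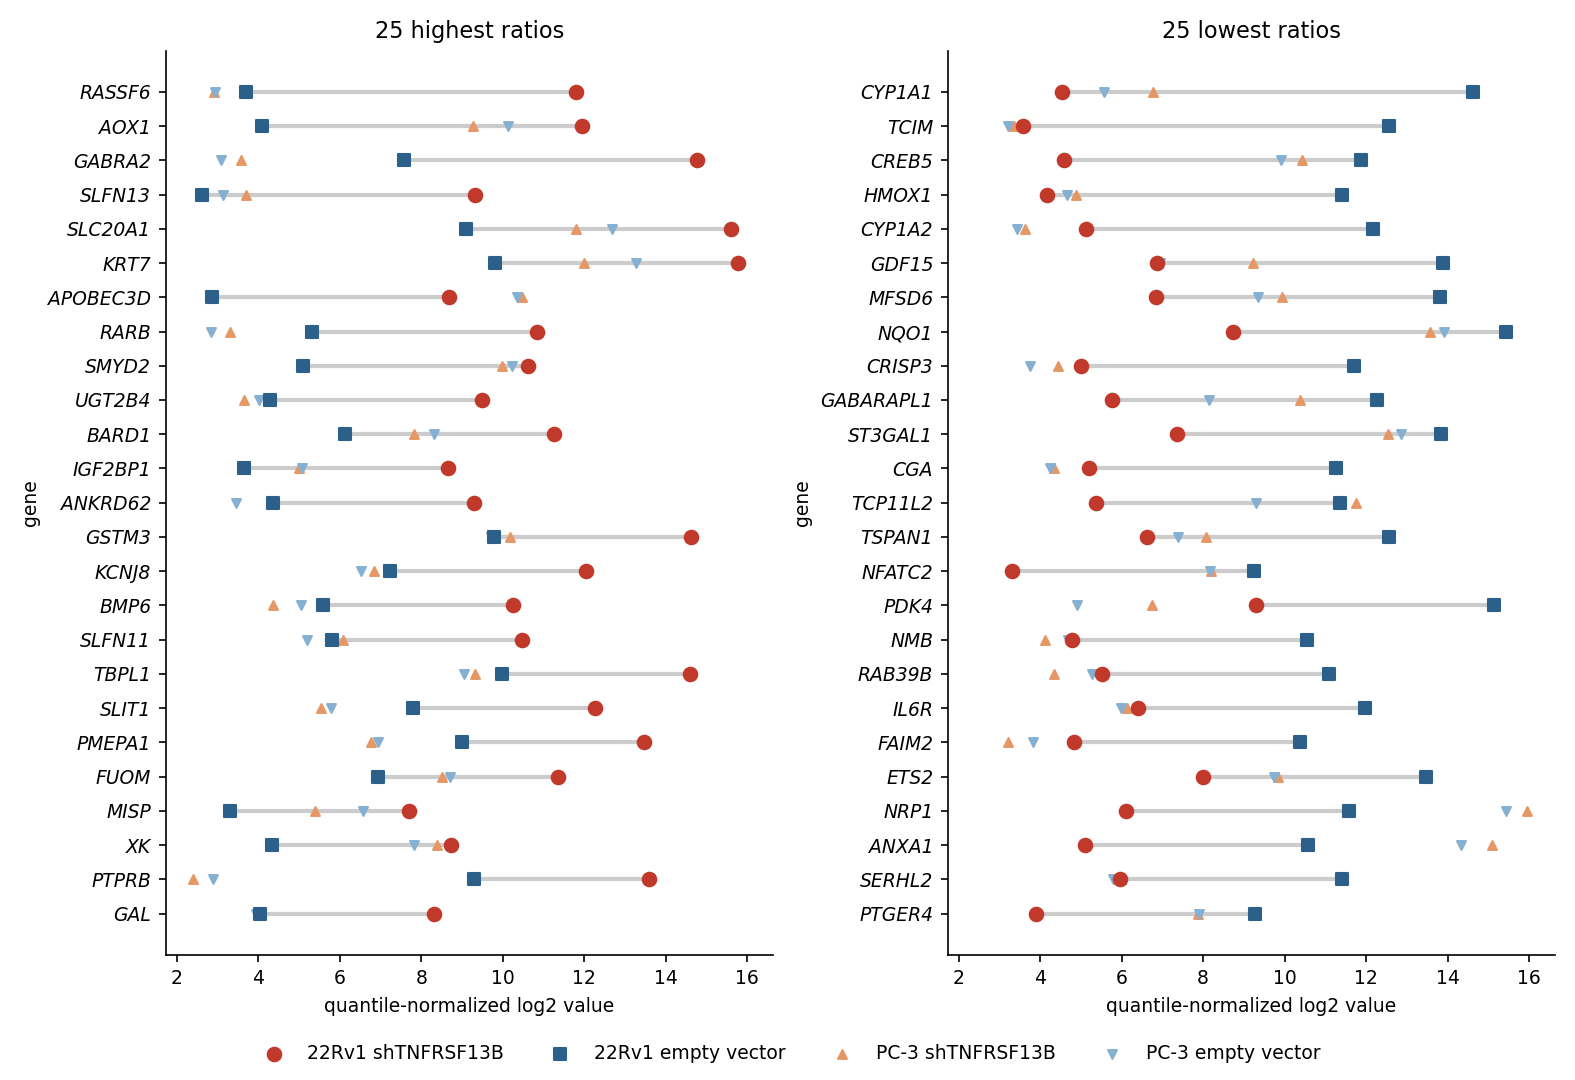
Quantile-normalized log2 value (x) of the 25 genes with the highest ratio (left) and the 25 with the lowest (right), with 1 row per gene, in 22Rv1 with shTNFRSF13B (red circles) and empty vector (dark blue squares) and in PC-3 with shTNFRSF13B and empty vector (small triangles). The 22Rv1 points lie apart by ratios of 4.27 to 8.08 on the left and of -10.09 to -5.38 on the right, and most PC-3 pairs lie close together.

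The 25 lowest ratios were larger in size, from -10.09 to -5.38, and their deposited ratios ran from -9.14 to -3.74, so that all 25 were lower on both scales. CYP1A1, a cytochrome P450 that oxidises polycyclic aromatic hydrocarbons, had 4.54 with shTNFRSF13B and 14.63 with the empty vector, and -9.70 as a ratio against the dim reference of the shTNFRSF13B array. TCIM, a small regulator of transcription, had 3.57 and 12.55. CREB5, a leucine-zipper transcription factor that binds cyclic AMP response elements, had 4.59 and 11.88. MFSD6 (6.85 and 13.81), the sialyltransferase ST3GAL1 (7.36 and 13.83), the tetraspanin TSPAN1 (6.62 and 12.57) and CGA, the shared alpha chain of the glycoprotein hormones (a ratio of -6.04), followed. CRISP3, a cysteine-rich secretory protein of the prostate, had a ratio of -6.71 (-5.10 as deposited).

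Several of the 25 encode receptors and their effectors. IL6R, the interleukin-6 receptor, had 6.41 with shTNFRSF13B and 11.96 with the empty vector. NRP1, a coreceptor for VEGF and semaphorins, had 6.10 and 11.57, and PTGER4, a prostaglandin E2 receptor, had 3.89 and 9.27. The calcium-regulated factor NFATC2 had 3.31 and 9.24, the ETS factor ETS2 7.99 and 13.47, and the phospholipid-binding protein ANXA1 5.11 and 10.58. Of the 25 genes 8 had a shTNFRSF13B value at or under the dim reference, and 5 (CYP1A1, GDF15, GABARAPL1, TCP11L2 and PDK4) were at least 2-fold higher with shTNFRSF13B in PC-3, where none was 2-fold lower. Just past these 25, and chosen after their values were seen, the growth factor HGF had 5.80 with shTNFRSF13B and 11.12 with the empty vector, and the transcription factor SOX9 had 6.51 and 11.70.

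The aryl hydrocarbon receptor is a ligand-activated transcription factor that, with its partner ARNT, switches on cytochromes of the CYP1 family and enzymes of conjugation. NRF2 (NFE2L2), held in check by KEAP1, drives a partly shared set of antioxidant genes. Of 8 genes of the aryl hydrocarbon receptor list 6 were at least 2-fold lower and none higher, with a median of -3.73 (-2.59 as deposited), and all 6 were lower on both scales. CYP1A2 had 5.13 with shTNFRSF13B and 12.17 with the empty vector (-5.47 as a deposited ratio), and CYP1B1 had 4.20 and 7.25 (-1.41). NQO1, a quinone reductase that both factors induce, had 8.72 and 15.44. TIPARP, an ADP-ribosyltransferase that feeds back on the receptor, had 8.07 and 11.85 (-2.16 as a deposited ratio), and the receptor gene AHR itself had 11.63 and 15.31 (-3.02). ARNT was equal on both arrays (12.07 and 12.10), and ALDH3A1 had 4.84 and 5.34. This list and the NRF2 list were written with the largest falls already known, and their direction is therefore a description of those genes. The other gene lists below were also chosen with earlier results of these data known, and their directions are descriptions in the same sense.

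Of 34 NRF2 target genes 16 were at least 2-fold lower and 2 higher, with a median of -0.87 (0.47 as deposited). As deposited 12 of them were at least 2-fold higher and 8 lower, against 58.3% and 2.01% of all genes. On both scales 8 were lower. HMOX1, which encodes the haem-degrading enzyme haem oxygenase 1, had 4.16 with shTNFRSF13B and 11.41 with the empty vector. AKR1C2, a ketosteroid reductase that inactivates dihydrotestosterone, had 6.42 and 10.69, and the epoxide hydrolase EPHX1 had 9.19 and 13.27. SLC7A11, the cystine-glutamate exchanger, had 10.94 and 14.26, biliverdin reductase B (BLVRB) 10.49 and 13.64, and thioredoxin reductase (TXNRD1) 13.46 and 16.06. The deposited ratios of these 6 genes were -5.69, -2.59, -2.71, -2.27, -1.92 and -2.20. In the other direction, the glutathione peroxidase GPX2 had 7.92 with shTNFRSF13B and 4.47 with the empty vector, and the autophagy receptor SQSTM1 had 15.14 and 12.36. NFE2L2 (-0.34) and KEAP1 (-0.19) stayed within 2-fold.

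Glutathione S-transferases, which join glutathione to electrophiles, split by class. All 5 genes of the mu class were at least 2-fold higher with shTNFRSF13B, with a median of 3.99 (5.67 as deposited), and they lie next to each other on chromosome 1 in the order GSTM4, GSTM2, GSTM1, GSTM5 and GSTM3. Their ratios in that order were 4.14, 3.99, 3.26, 1.44 and 4.83, and the same genes had ratios between -0.63 and 0.73 in PC-3. The neighbours on either side, AMPD2 (1.35) and EPS8L3 (1.88), and CSF1 (1.38) beyond it, were also at least 2-fold higher, EPS8L3 by more than GSTM5. Past AMPD2, GNAT2 had -2.38, GNAI3 0.56, GPR61 0.01 and AMIGO1 1.34, and PSRC1, further along, had 3.71. The run of 15 genes from SYPL2 to CSF1, the 5 mu genes included, had a median of 1.35. It ranked 2 among the highest such runs that do not overlap. In it 9 genes were at least 2-fold higher and only GNAT2 was at least 2-fold lower. Past CSF1, AHCYL1 had -0.61 and UBL4B -0.54. Of 5 genes of the alpha class 4 were at least 2-fold lower, led by GSTA3 at 4.37 with shTNFRSF13B against 9.47 with the empty vector. The pi class gene GSTP1 had 4.90 and 4.15. The mu genes are close in sequence, so their probe sets may share signal, and they were set out after their values were seen.

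**Figure D3:**
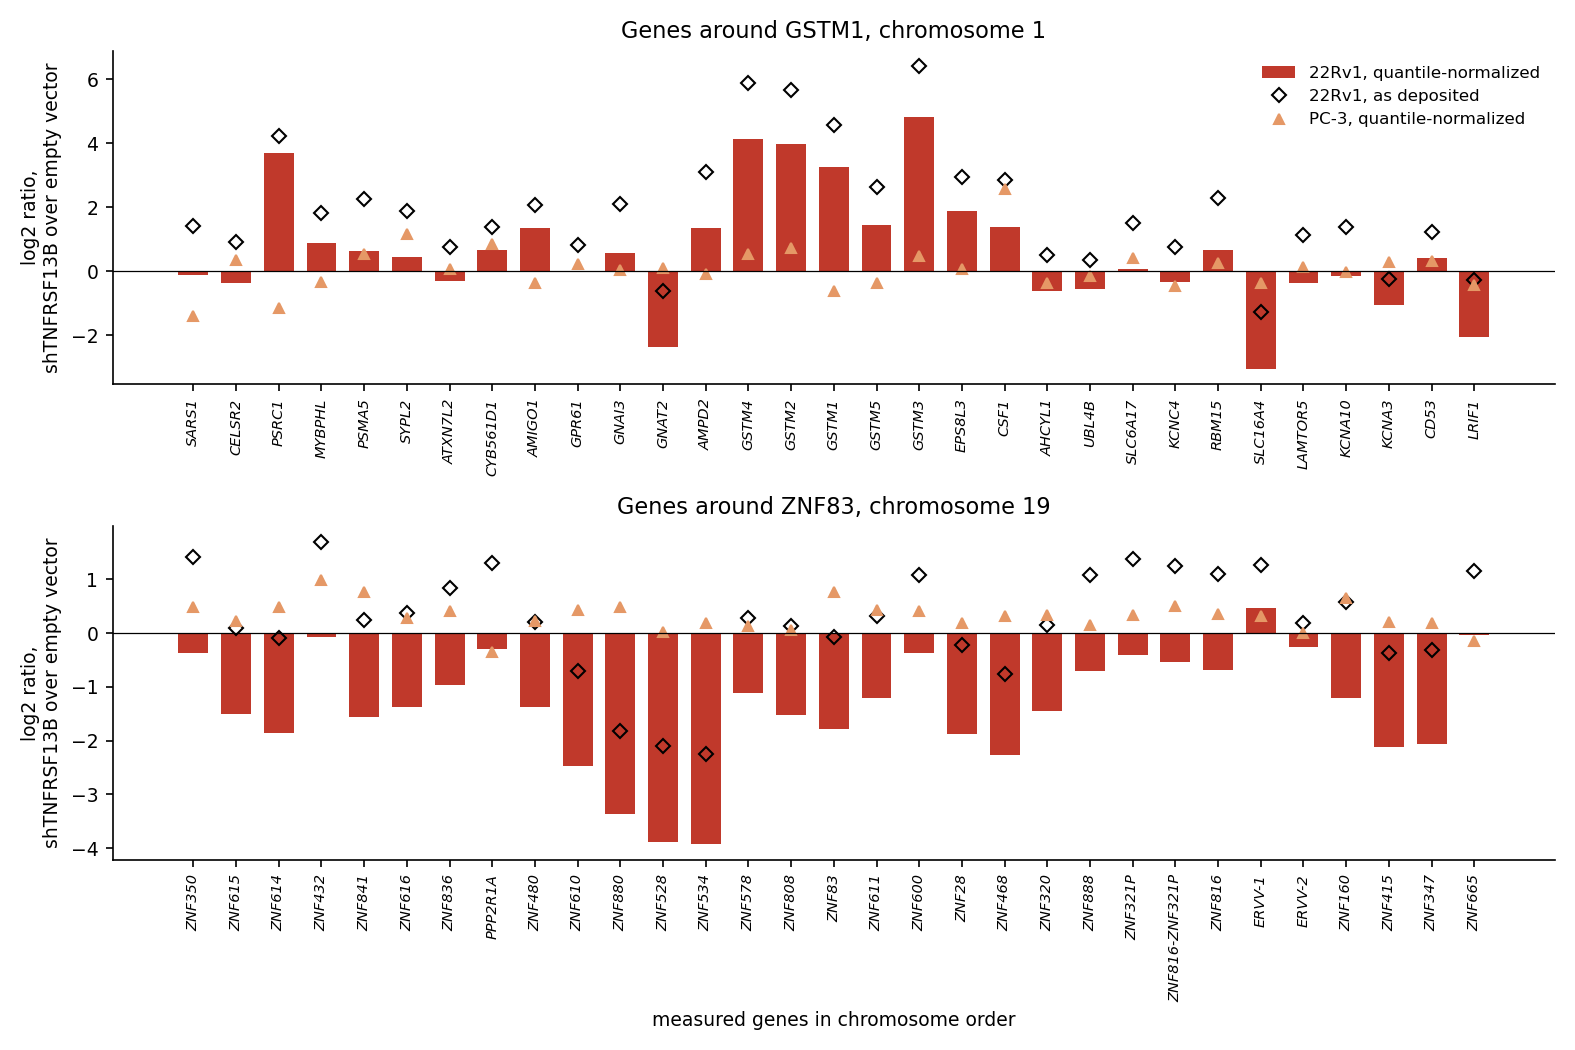
Log2 ratio of shTNFRSF13B over empty vector (y) for consecutive measured genes in chromosome order (x) around GSTM1 (top) and around ZNF83 (bottom), as bars for 22Rv1 after quantile normalization, diamonds for 22Rv1 as deposited and triangles for PC-3. The 5 GSTM bars have ratios of 1.44 to 4.83, GNAT2 to their left has -2.38 and PSRC1 further left 3.71, while ZNF534, ZNF528 and ZNF880 form the deepest part of a run of lower zinc finger genes, at -3.93, -3.88 and -3.37.

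On chromosome 19 a run of zinc finger genes stood lower. Most of them encode repressors of transposable elements with a KRAB domain. Among the 28 ZNF genes within 15 genes of ZNF83 on either side, 19 were at least 2-fold lower and none was higher, with a median of -1.42 (0.23 as deposited). ZNF534 had -3.93 (-2.24 as deposited), ZNF528 -3.88 (-2.10) and ZNF880 -3.37 (-1.83), and these 3 neighbours were the lowest. Over all 448 ZNF genes measured the median was -0.40, with 25.4% at least 2-fold lower and 7.59% higher. In PC-3 the 28 genes had a median of 0.34. Members of this run are near copies of each other, and signal shared between their probe sets cannot be told apart here.

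Immediate early genes are transcribed within minutes of growth factor or stress signals and include the FOS and JUN subunits of the AP-1 factor. Of 27 genes on this list 19 were at least 2-fold lower and 1 higher, with a median of -1.55 (-0.12 as deposited). As deposited 10 were lower and 4 higher, against 2.01% lower and 58.3% higher over all genes, and 10 were lower on both scales. The zinc finger factor EGR1 had 5.23 with shTNFRSF13B and 10.13 with the empty vector. JUN had 5.66 and 10.31, JUND 6.39 and 10.71, and IER5 5.04 and 9.59. KLF4, an epithelial zinc finger factor, had 5.09 and 8.75, and the orphan nuclear receptors NR4A1 and NR4A3 had 8.76 and 3.35 with shTNFRSF13B against 11.60 and 6.77 with the empty vector. ATF3 (-3.10), ZFP36, which destabilises AU-rich messages (-3.06), and the MAP kinase phosphatase DUSP1 (-2.75) were lower too, with deposited ratios of -1.37, -1.28 and -1.07. IER3 was the exception, at 5.93 with shTNFRSF13B against 4.12 with the empty vector. FOS had 5.27 and 6.15 and lay within 2-fold.

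Of 18 genes that report on and restrain the ERK pathway 10 were at least 2-fold lower and 3 higher, with a median of -1.50 (-0.13 as deposited). As deposited 5 were lower and 6 higher, against 2.01% lower and 58.3% higher over all genes, and 4 were lower on both scales. PHLDA1 had 7.15 with shTNFRSF13B and 12.25 with the empty vector, and ERRFI1, which inhibits the EGF receptor, had 12.45 and 16.52. The ERK phosphatases DUSP4 and DUSP6 had 8.80 and 5.17 with shTNFRSF13B against 12.83 and 9.05 with the empty vector. The deposited ratios of these 4 genes were -3.51, -3.98, -2.55 and -2.11. SPRED1, a Ras inhibitor, was higher at 9.22 with shTNFRSF13B against 7.18 with the empty vector. HBEGF, a ligand of the EGF receptor, had 5.44 and 9.40, and the ligand BTC had 6.53 and 4.78.

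The promoters of some immediate early genes are shown because the core letters of the cyclic AMP response element, TGACG on either strand, was frequent among them. In the 250 bases before the RefSeq start it was found in 13 of 20 genes of the list (65.0%), against 3655 of the 14250 measured genes with a promoter sequence (25.6%). Of the genes at least 2-fold lower, 27.3% held it, so it did not set the lower genes apart in general. The 120 bases before the start (RefSeq, GRCh38.p14) are given 5′ to 3′ on the strand of the gene for the 2 lowest genes of the list with a match there, with the match in capitals.
EGR1: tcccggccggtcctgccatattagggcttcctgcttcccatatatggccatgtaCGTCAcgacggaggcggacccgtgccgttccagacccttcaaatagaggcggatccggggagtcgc
JUND: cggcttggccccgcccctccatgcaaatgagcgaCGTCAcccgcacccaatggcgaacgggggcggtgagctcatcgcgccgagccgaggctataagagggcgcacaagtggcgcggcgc
EGR1 lies on the plus strand at chr5:138465359-138465478 and JUND on the minus strand at chr19:18281623-18281742. A match of letters is a description of the window and no sign of binding. Letters did not follow the lists throughout: GCGTG, the core of the xenobiotic response element, was found in 2 of 6 aryl hydrocarbon receptor targets (33.3%), against 39.4% of all promoters. TGACNNNGC, the antioxidant response element, was found in 6 of 27 NRF2 targets (22.2%) against 11.8%, and TGATGNAA in 4 of 27 ATF4 targets (14.8%) against 2.20%.

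FoxO factors are held out of the nucleus by AKT and switch on genes of autophagy, glucose sparing and growth arrest. Of 34 FoxO targets 17 were at least 2-fold lower and 3 higher, with a median of -1.09 (0.44 as deposited). The counts depended on the scale. As deposited 13 were at least 2-fold higher and 9 lower, against 58.3% and 2.01% of all genes, and 9 were lower on both scales. GABARAPL1, a ubiquitin-like protein of the autophagosome, had 5.77 with shTNFRSF13B and 12.27 with the empty vector, and TCP11L2 had 5.38 and 11.36. PDK4, the kinase that shuts pyruvate dehydrogenase, had 9.29 and 15.14. The repressor BCL6 (11.02 and 15.06), the insulin receptor substrate IRS2 (8.39 and 12.24), ARRDC3 (6.93 and 10.57), the muscle-atrophy ubiquitin ligase FBXO32 (4.95 and 8.12, a deposited ratio of -1.41) and the thioredoxin inhibitor TXNIP (10.41 and 13.26) were lower as well. BCL2L11, the pro-apoptotic protein BIM, went the other way with 9.02 and 7.05. In PC-3 the median of this list was 0.71, and ARRDC3 and TCP11L2 were higher there with shTNFRSF13B, at 4.22 and 2.44.

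Of 42 p53 targets 24 were at least 2-fold lower and 3 higher, with a median of -1.16 (0.46 as deposited). As deposited 15 were at least 2-fold higher and 6 lower, and 6 were lower on both scales. Over all genes the deposited shares were 58.3% higher and 2.01% lower, so these counts alone do not show a turned balance. p53 is the tumour suppressor that answers DNA damage with arrest or death, and PC-3 lacks it. GDF15, a stress cytokine, had 6.87 with shTNFRSF13B and 13.88 with the empty vector, and CDKN1A, the cyclin-dependent kinase inhibitor p21, had 9.78 and 13.59. GADD45A had 8.43 and 12.16, ACER2 5.76 and 9.38, and PLK2 had a ratio of -2.85. The deposited ratios of these 5 genes were -5.78, -2.53, -2.15, -1.88 and -1.09. MDM2, the ubiquitin ligase of p53, had 11.83 and 13.30, a ratio of -1.47 (-0.16 as deposited). PMAIP1, the pro-apoptotic protein NOXA, was higher at 7.90 with shTNFRSF13B against 5.72 with the empty vector.

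ATF4 is the transcription factor of the integrated stress response and drives amino acid uptake and synthesis. Of its 32 targets 17 were at least 2-fold lower and 2 higher, with a median of -1.27 (0.20 as deposited). As deposited 10 were at least 2-fold higher and 7 lower, against 58.3% and 2.01% of all genes, and 7 were lower on both scales. The counts of this list thus depend on the scale. SLC3A2 and SLC7A5, the chains of a leucine transporter, had 13.13 and 13.65 with shTNFRSF13B against 16.38 and 16.78 with the empty vector. TRIB3 had 7.28 and 10.34, and the glutathione-degrading enzyme CHAC1 had 5.74 and 8.55. The arginine transporter SLC7A1 was higher, at 14.02 with shTNFRSF13B against 11.44 with the empty vector. The median of this list was also negative in PC-3, at -1.12. Among 16 cytosolic aminoacyl-tRNA synthetases, which charge tRNAs, GARS1 (-2.00), YARS1 (-1.85) and CARS1 (-1.07, but 0.58 as deposited) were at least 2-fold lower and none was higher. The lower share of 18.8% was near the 15.5% of all genes.

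**Figure D4:**
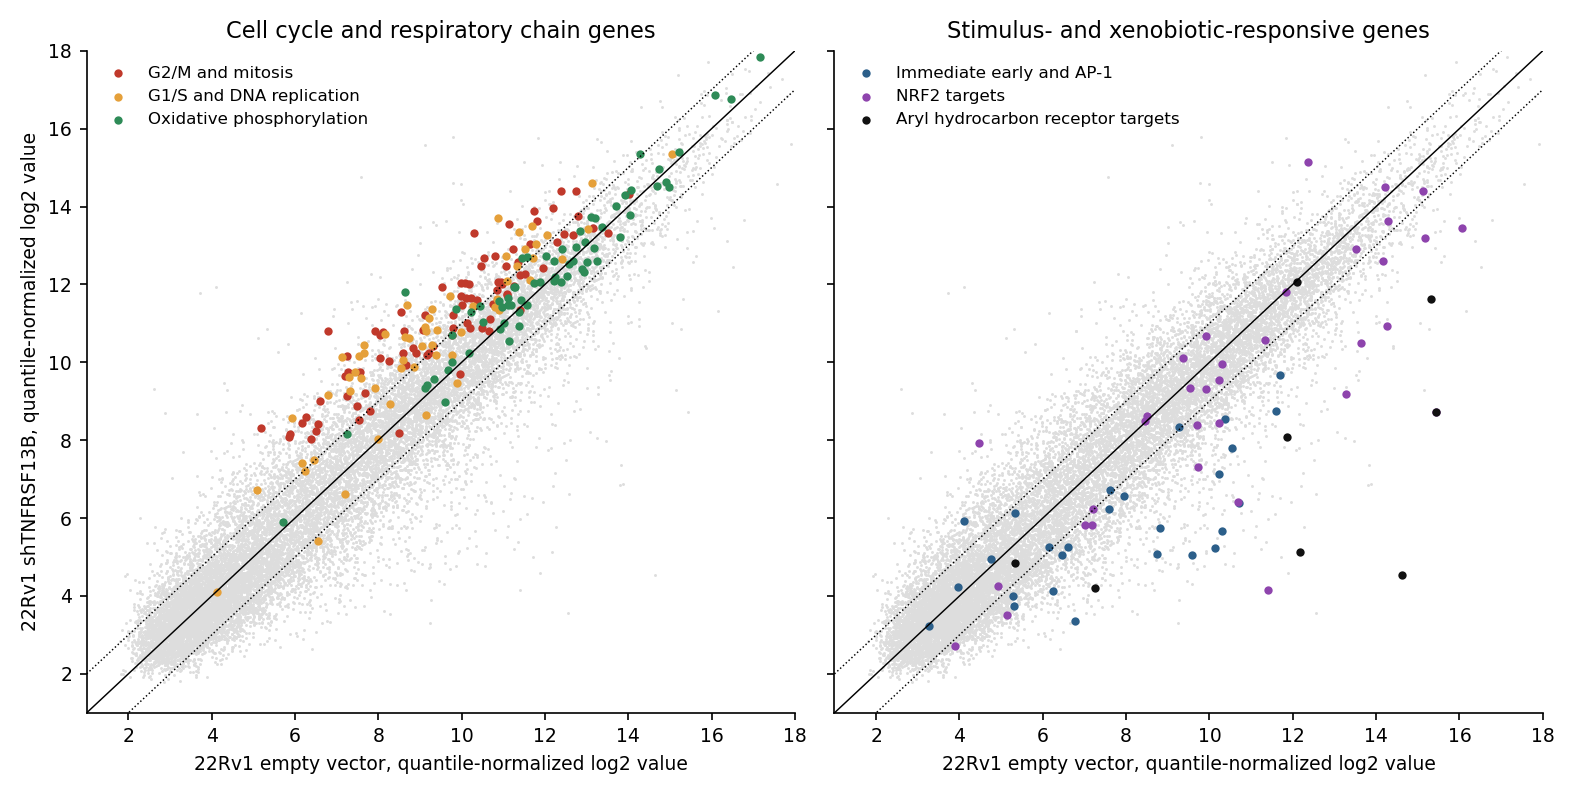
Quantile-normalized log2 value with shTNFRSF13B (y) against that with the empty vector (x) in 22Rv1 for all genes (grey), with cell cycle and oxidative phosphorylation genes coloured on the left and immediate early, NRF2 and aryl hydrocarbon receptor genes on the right. Solid lines mark equal values and dotted lines a 2-fold difference, and the few brightest genes past the end of the axes are not drawn. Most G2/M genes lie above the line of equality (62 of 87 beyond 2-fold), and 19 of 27 immediate early genes lie beyond 2-fold below it.

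Cell cycle genes stood on the higher side. Of 87 genes of G2/M and mitosis 62 were at least 2-fold higher and none lower, with a median of 1.52 (3.14 as deposited). CENPM, a protein of the inner kinetochore, had 10.80 with shTNFRSF13B and 6.80 with the empty vector. HJURP, the chaperone of the centromeric histone CENP-A, had 13.33 and 10.29, and separase (ESPL1), which cuts cohesin at anaphase, had 10.15 and 7.26. The kinesins KIF20A (10.80 and 7.93), KIFC1 (11.29 and 8.54) and CENPE (10.79 and 8.11) and the kinase AURKB (9.66 and 7.19) followed. The proliferation marker MKI67 had 13.95 and 12.19, cyclin B1 (CCNB1) 12.48 and 10.47 and PLK1 14.41 and 12.75, all at least 2-fold higher. TOP2A lay within 2-fold, at 13.26 and 12.67. As deposited the ratios were 5.62 for CENPM, 4.72 for HJURP, 3.31 for MKI67, 3.68 for CCNB1 and 3.04 for PLK1.

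Of 59 genes of G1/S and DNA replication 39 were at least 2-fold higher and 1 lower, with a median of 1.35 (3.03 as deposited). POLA1, the catalytic subunit of DNA polymerase alpha, had 10.13 with shTNFRSF13B and 7.13 with the empty vector, and thymidylate synthase (TYMS) had 13.71 and 10.87. ORC1, which marks replication origins, had 10.45 and 7.66, the helicase cofactor CDC45 11.46 and 8.68, and E2F1, the factor that drives this programme, 9.17 and 6.79. Of 24 DNA repair genes 14 were at least 2-fold higher and none lower, with a median of 1.25 (2.91 as deposited), led after BARD1 by the recombination ATPase RAD54L at 8.77 and 6.05. Of 47 replication-dependent histone genes 23 were at least 2-fold higher and 1 lower, with a median of 0.88, and H3C2 led with a ratio of 3.73 (5.42 as deposited). Histone genes are near copies of each other, and their single values are uncertain. The medians of these 4 lists in PC-3 were -1.84 for G2/M, -1.30 for G1/S, -1.15 for DNA repair and -1.37 for histones.

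Promoter sequences of cell cycle genes are printed because the lists share letters that the choice of genes did not use. The cell cycle genes homology region is the binding site of the DREAM and MuvB complexes, and its letters TTTGAA, on either strand, were found before the start of 33 of 73 G2/M genes (45.2%), against 10.7% of all 14250 promoters. CCAAT, the site of NF-Y, was found in 51 of the 73 (69.9%) and in 37 of 43 histone genes (86.0%), against 34.6% of all. The E2F letters TTCCCGC were found in 15 of 49 G1/S genes (30.6%), against 7.61% of all. Over all genes at least 2-fold higher these shares were 10.6%, 36.6% and 9.68%, so the letters follow the cell cycle lists and not the higher genes at large. The 120 bases before the RefSeq start (GRCh38.p14) follow for the 3 G2/M genes with the highest ratios and TTTGAA in this stretch, and for the 2 such G1/S genes with TTCCCGC, 5′ to 3′ on the strand of the gene with these letters, read on either strand, in capitals.
HJURP: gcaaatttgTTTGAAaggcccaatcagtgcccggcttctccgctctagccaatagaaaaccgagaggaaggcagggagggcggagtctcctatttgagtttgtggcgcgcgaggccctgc
ESPL1: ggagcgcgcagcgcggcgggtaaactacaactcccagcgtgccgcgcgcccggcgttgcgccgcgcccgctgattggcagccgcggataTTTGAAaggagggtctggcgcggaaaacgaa
NCAPG: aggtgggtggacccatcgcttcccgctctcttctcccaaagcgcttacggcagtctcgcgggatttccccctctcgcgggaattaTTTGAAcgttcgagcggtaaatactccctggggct
POLA1: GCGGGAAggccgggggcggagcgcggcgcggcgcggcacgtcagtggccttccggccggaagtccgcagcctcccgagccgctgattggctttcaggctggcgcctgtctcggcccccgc
TYMS: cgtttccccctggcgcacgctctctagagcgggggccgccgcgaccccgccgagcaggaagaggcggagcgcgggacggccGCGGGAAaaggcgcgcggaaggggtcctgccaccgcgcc
HJURP lies at chr2:233854536-233854655 on the minus strand, and ESPL1 (chr12:53268179-53268298), NCAPG (chr4:17810859-17810978), POLA1 (chrX:24693798-24693917) and TYMS (chr18:657533-657652) on the plus strand. In ESPL1 and NCAPG the capitals begin 31 and 35 bases before the start, and in HJURP 111 bases before it. NCAPG, a condensin subunit, had 13.55 with shTNFRSF13B and 11.13 with the empty vector.

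The regulators of entry into the cycle differed among themselves. A list of 19 cyclin-dependent kinases, their inhibitors, D cyclins, pocket proteins and E2F factors held 5 at least 2-fold higher and 3 lower. Its median was 0.07. The shares were 26.3% and 15.8%, against 13.3% and 15.5% of all genes. CDKN1A was the lowest of them at -3.81, whereas CDKN2A, which encodes the inhibitors p16 and p14ARF, was higher, at 9.84 with shTNFRSF13B and 7.11 with the empty vector. The kinases CDK4 (14.41 and 12.11) and CDK2 (14.17 and 12.01) and the pocket protein RBL1 (11.69 and 9.66) were higher, while RBL2 (10.93 and 12.17) and CDK6 (7.32 and 8.48) were lower. The deposited ratios of RBL2 and CDK6 were 0.30 and 0.63. Cyclin D1 (CCND1) had 17.08 and 17.41, but a deposited ratio of -1.73, and RB1 had 11.94 and 12.48.

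The machinery of TACI itself did not move as a block. Of 22 ligands, receptors and adaptors, TNFRSF13B included, 6 were at least 2-fold higher and 4 lower, shares of 27.3% and 18.2%, with a median of -0.26 (1.25 as deposited). SDC4, a heparan sulphate proteoglycan of a family that binds APRIL, had 8.36 with shTNFRSF13B and 11.34 with the empty vector. CAMLG, the calcium modulator first described as a partner of TACI, had 9.17 and 10.77, with a deposited ratio of 0.06. The adaptors TRAF5 (7.18 and 4.52) and TRAF3 (10.77 and 9.47), the kinase MAP3K14 of the alternative NF-kappaB pathway (9.68 and 7.99) and its substrate NFKB2 (10.62 and 9.32) were higher. BAFF (TNFSF13B) had 4.53 and 4.95, near the dim reference, and BCMA (TNFRSF17), the related receptor, had 2.12 and 2.86. Of 36 NF-kappaB target genes 3 were at least 2-fold higher and 4 lower, both shares under those over all genes. Many of these genes lay under the dim reference on both arrays, among them CXCL8 (4.69 and 4.42) and IL6 (2.68 and 2.89), which limits this count. Without genes under the array medians the median of this list, 0.07, became 0.77.

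Interferon-stimulated genes, which carry the antiviral state, held 13 of 57 at least 2-fold higher and 5 lower, with a median of 0.38 (1.68 as deposited). The shares were 22.8% and 8.77%, against 13.3% and 15.5% of all genes. PLSCR1 had 9.04 with shTNFRSF13B and 6.16 with the empty vector, HERC5, the ligase of ISG15, 6.57 and 3.83, and HERC6 7.69 and 5.16. PARP9 (11.15 and 9.09), its partner DTX3L (9.96 and 8.02), PARP14 (10.77 and 8.89) and the RNA sensor RIGI (7.53 and 5.54) were also higher. SP110, a nuclear body protein, was lower, at 5.52 with shTNFRSF13B against 7.78 with the empty vector, and so was ISG15, at 4.96 against 6.79. Of 16 genes of MHC class I presentation 4 were higher, among them HLA-C (8.89 and 7.11) and the trimming peptidase ERAP1 (9.68 and 7.82), and B2M had 13.16 and 13.41. In PC-3 the median of the interferon list was 4.32, from a pair of arrays that shares no sample with this one.

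**Figure D5:**
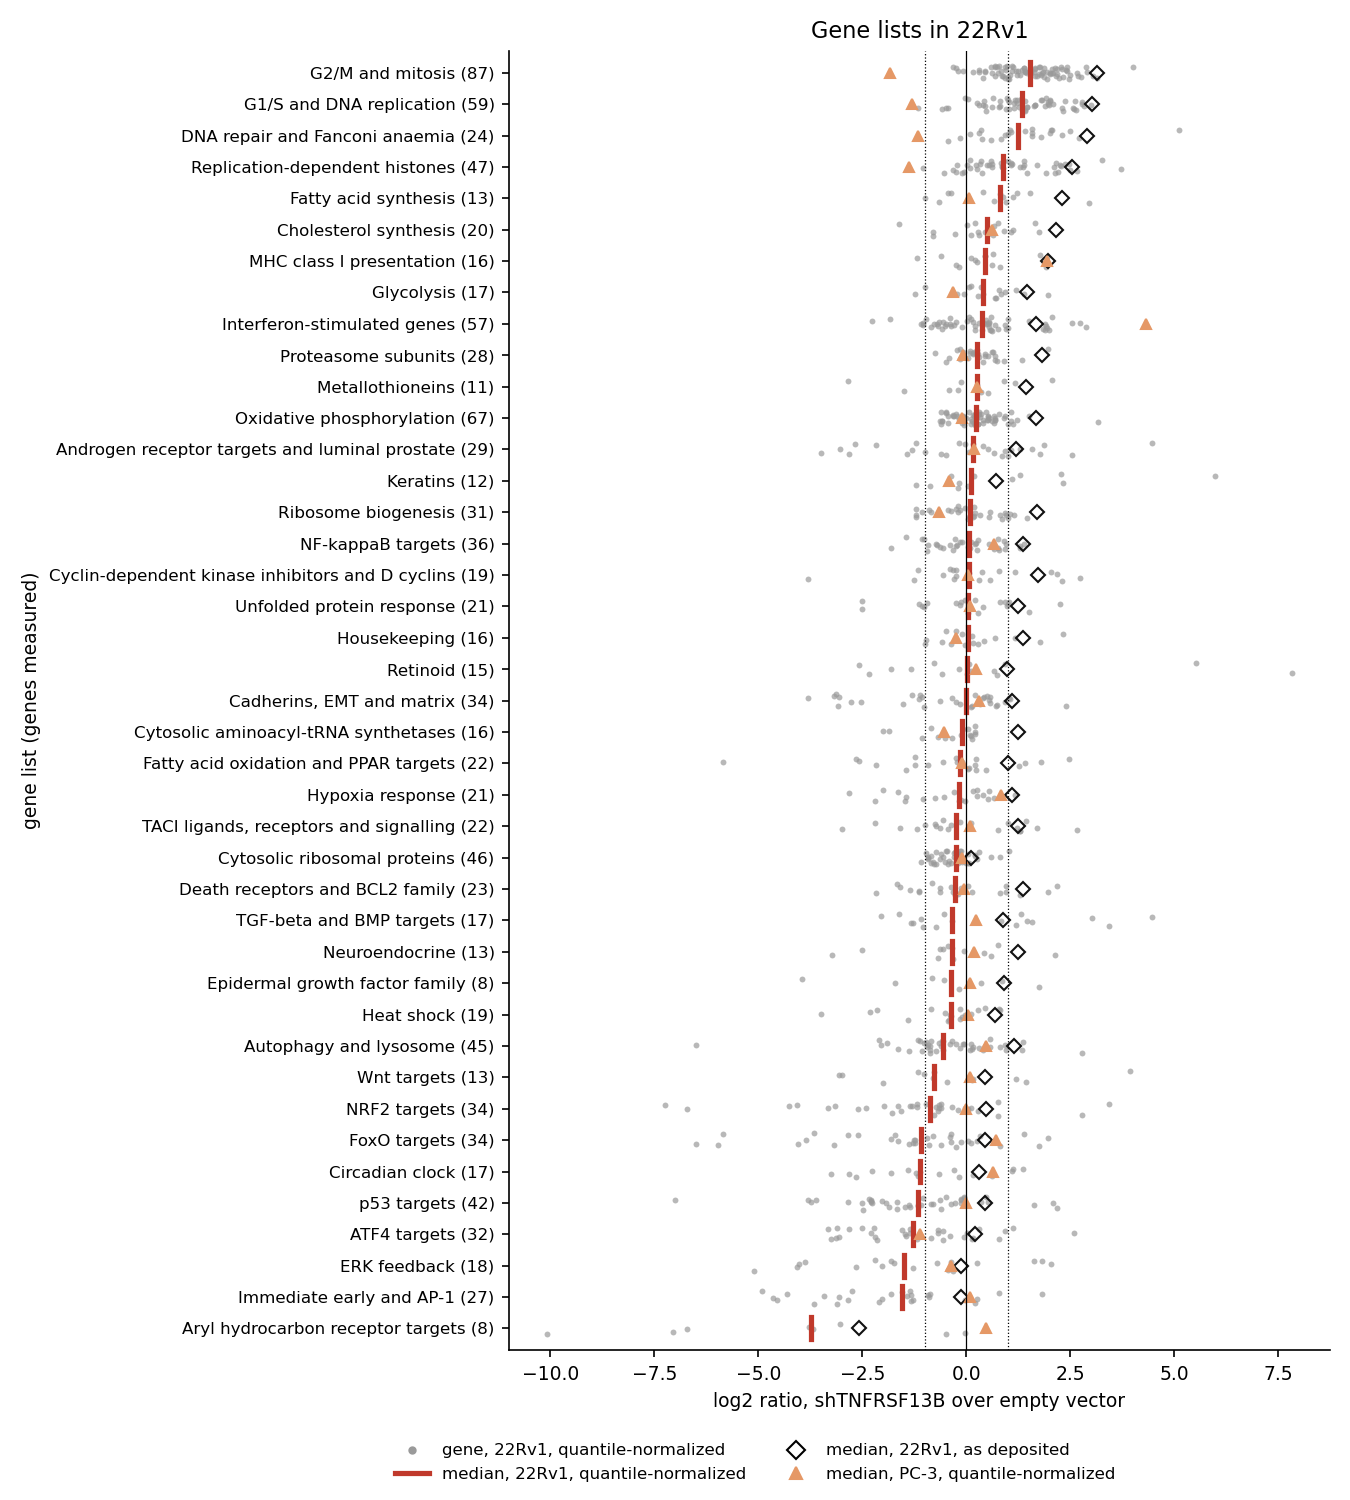
Log2 ratio of shTNFRSF13B over empty vector (x) for the 41 gene lists (y, with the number of genes measured), with 1 grey point per gene in 22Rv1, red bars for the 22Rv1 median after quantile normalization, open diamonds for the 22Rv1 median as deposited and triangles for the PC-3 median. Medians after quantile normalization run from -3.73 for aryl hydrocarbon receptor targets to 1.52 for G2/M, and the deposited median is higher for each list.

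Growth factor pathways of differentiation held single genes with large differences. In TGF-beta and BMP signalling 7 of 17 genes were at least 2-fold higher and 6 lower. Both shares, 41.2% and 35.3%, exceeded the 13.3% and 15.5% of all genes. On the deposited scale 8 genes of this list passed 2-fold upward and none downward, so its lower genes depend on the scale. Over all genes 58.3% passed it upward there and 2.01% downward. The list median was -0.34 (0.87 as deposited). SMAD6, an inhibitory SMAD, had 10.37 with shTNFRSF13B and 6.95 with the empty vector, and the ligand BMP2 had 11.09 and 8.07, whereas BAMBI, a decoy receptor, had 5.53 and 7.59. Among 13 Wnt targets LEF1, a partner of beta-catenin, had 15.77 and 11.83, while the Wnt inhibitor DKK1 had 7.32 and 10.30 and AXIN2 had 4.92 and 5.70. Among 15 retinoid genes AOX1 and RARB were the only 2 at least 2-fold higher (13.3%) and 4 were lower (26.7%), against 13.3% and 15.5% of all genes. The lower genes included CRABP2, which carries retinoic acid to its receptors, at 5.91 with shTNFRSF13B against 8.26 with the empty vector.

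Of 17 genes of the circadian clock 9 were at least 2-fold lower and 3 higher, with a median of -1.11 (0.30 as deposited). As deposited 6 were at least 2-fold higher and 3 lower, against 58.3% and 2.01% of all genes, and 3 were lower on both scales. NPAS2, a paralogue of CLOCK, had 8.10 with shTNFRSF13B and 11.36 with the empty vector, the repressor PER2 6.32 and 9.15, NR1D1, the receptor REV-ERB alpha, 4.36 and 7.01, and CRY1 7.48 and 9.76. CLOCK was higher, at 10.59 and 9.22. The deposited ratios were -1.61 for NPAS2, -1.05 for PER2, -1.02 for NR1D1, -0.51 for CRY1 and 3.09 for CLOCK. The hour of harvest of the cultures was not known.

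Genes of prostate and epithelial identity went both ways. Of 29 androgen receptor targets and luminal genes 8 were at least 2-fold higher and 8 lower, with a median of 0.16 (1.19 as deposited). The share was 27.6% in each direction, against 13.3% higher and 15.5% lower over all genes, and 4 genes were lower on both scales. PMEPA1, HPGD, a prostaglandin-degrading enzyme (15.02 and 13.15), STEAP1 (13.26 and 11.50) and the exporter ABCC4 (7.83 and 5.29) were higher with shTNFRSF13B. TSC22D3, also a glucocorticoid target (6.24 and 9.74), TMEM45B (11.03 and 14.07), NDRG1 (4.68 and 7.51) and the ETS factor SPDEF of secretory epithelia (9.12 and 11.28) were lower. Of 12 keratins 5 were higher (41.7%), KRT7 and KRT19 (15.04 and 12.77) among the bright ones, and KRT18 was lower (12.72 and 13.92, but 0.02 as a deposited ratio). The tight junction claudins CLDN1 (3.88 and 7.07), CLDN3 (6.94 and 10.07) and CLDN4 (10.79 and 13.55), the collagen receptor ITGA2 (6.59 and 10.40) and the collagenase MMP1 (4.91 and 7.99) were lower, and 13 of 34 adhesion and matrix genes were at least 2-fold lower against 3 higher. As deposited 17 of these 34 genes were at least 2-fold higher and 7 lower, against 58.3% and 2.01% of all genes. On both scales 7 were lower. Fibronectin (FN1) was higher, at 8.02 with shTNFRSF13B against 5.63 with the empty vector. Of the neuroendocrine genes the granin CHGB (6.40 and 8.91) and SYT4 (5.41 and 8.64) were lower and NCAM1 (4.15 and 2.03) was higher but under the dim reference.

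For the lists of metabolism and protein synthesis that follow, the shares over all genes were 13.3% higher and 15.5% lower, and 58.3% and 2.01% as deposited. In oxidative phosphorylation 7 of 67 genes (10.4%) were at least 2-fold higher and none lower, with a median of 0.23 (1.68 as deposited). NDUFB11, a subunit of complex I, stood apart at 11.81 with shTNFRSF13B against 8.64 with the empty vector. In fatty acid synthesis 4 of 13 were higher and 1 lower, led by SREBF1, the master factor of lipogenesis, at 11.60 and 8.64, with the desaturase SCD at 13.25 and 11.73. In fatty acid oxidation 7 of 22 were lower and 4 higher, with CPT1A, the gate of mitochondrial fatty acid entry, at 8.84 and 11.01 and the lipid droplet protein PLIN2 at 6.96 and 4.48. As deposited 1 of these 22 genes was at least 2-fold lower and 11 were higher. In glycolysis ENO1 (16.72 and 14.75), TPI1 (14.87 and 13.49) and PGAM1 (14.16 and 12.97) were at least 2-fold higher, of 17 genes (17.6%). Of 46 cytosolic ribosomal proteins RPS26 was the only gene at least 2-fold higher (1.03, but -0.16 when the arrays were only centred) and RPL31 the only gene lower (-1.08), and the median of this list was -0.26 after quantile normalization, 0.12 as deposited and -1.51 with centring only. Of 28 proteasome subunits PSMC3 (1.96) and PSMB7 (1.35) were higher (7.14%) and none lower. Among 16 housekeeping genes TUBB (15.65 and 13.33), PPIA (17.70 and 15.92, but a ratio of -0.25 when the arrays were only centred) and TFRC (13.36 and 12.19) were at least 2-fold higher (18.8%), and ACTB (10.94 and 11.06), TBP (10.98 and 10.85) and HPRT1 (10.47 and 10.05) were within 2-fold.

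For the stress and death lists that follow, the shares over all genes were 13.3% higher and 15.5% lower. As deposited they were 58.3% higher and 2.01% lower. Of 19 heat shock genes 4 were lower (21.1%) and none higher, led by the chaperones DNAJB4 (8.67 and 12.16) and HSPB8 (7.49 and 9.80), while HSP90AA1 had 15.61 and 15.76. As deposited 1 gene of this list was at least 2-fold lower and 8 were higher. Of 21 genes of the unfolded protein response 3 were higher (14.3%) and 5 lower (23.8%), with XBP1 at 11.04 with shTNFRSF13B against 13.55 with the empty vector and CRELD2 at 11.19 against 8.93. As deposited 1 of them was at least 2-fold lower and 12 were higher. Of 21 hypoxia genes 7 were lower (33.3%) and 1 higher, with VEGFA at 12.38 against 14.39. As deposited 1 hypoxia gene was at least 2-fold lower and 11 were higher. Among 11 metallothionein genes and their partners the zinc exporter SLC30A1 had 8.18 and 11.02, and MT2A had 14.32 and 13.97. Of 23 genes of cell death 6 were lower (26.1%), with CASP8 at 6.28 against 8.44, and 3 were higher, a share close to that over all genes. As deposited none of the 23 was at least 2-fold lower and 14 were higher, with a median of 1.36.

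Set beside PC-3, the genes at least 2-fold higher in 22Rv1 with shTNFRSF13B were at least 2-fold lower there in 12.3% of cases and higher in 5.88%, against 4.25% and 5.87% of all genes. The genes at least 2-fold lower in 22Rv1 were at least 2-fold higher in PC-3 in 9.94% of cases and lower in 2.89%. Most genes of either group stayed within 2-fold in PC-3, and whether the ratios of the 2 lines differ was not tested.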

How the data were processed

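RNA of stably transduced cells was hybridised to 4 arrays, 1 per condition. The authors deposited log2 expression values per probe set. Clariom D arrays and Transcriptome Analysis Console appear in the methods, RMA and Partek in the submitters' processing notes, and Affymetrix Expression Console in both. Versions and genome build are not given in the sources used here. Probe sets were named through the platform annotation (17709 with 1 symbol, none with several, 6642 with no listed symbol). RefSeq (GRCh38.p14) held each gene number. Of 20 genes with several probe sets the one with the highest mean over all 4 arrays stood for the gene. The 4 columns of 24351 probe sets were quantile-normalized and the ratio is shTNFRSF13B minus empty vector. A 2-fold difference was called, as in the methods. A single array per condition allowed no test and limits the precision of each value. No spot-level background flag was used.

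Members, the 41 gene lists, the 7 marker lists and the naming rule were chosen with earlier results of these data known. The rule named TNFRSF13B, the 25 highest and 25 lowest ratios of genes that exceeded the median of an array in 1 or both conditions, 6 members per list (every member up to 20 genes) and the markers. CCNB1, MKI67, PLK1, TOP2A, E2F1, MDM2, NFE2L2, KEAP1, PMAIP1, BCL2L11, FOS, APOBEC3B, ABCG2, HGF, SOX9, the glutathione transferase and zinc finger genes and some further list members were named after their values were seen. Promoter letters were searched on both strands in the 250 bases before each RefSeq start, 1 promoter per gene. Alternatives were the deposited values, centring each array, quantile normalization within 22Rv1 alone, loess (span 0.4), filters on dim genes, averaging probe sets per gene, and 1.5-fold and 3-fold thresholds. Python 3.11.15 with numpy 2.4.6, pandas 2.3.3, statsmodels 0.14.6 and matplotlib 3.10.9 was used.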

Additional observations from a re-analysis of the deposited data

Results flagged for a closer look

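Results past 2-fold in opposite directions in 22Rv1 and PC-3 are given here, each from 1 array per condition, and the difference between the lines was not tested. The median log2 ratio was 1.52 in 22Rv1 and -1.84 in PC-3 for G2/M and mitosis, 1.35 and -1.30 for G1/S and DNA replication, and 1.25 and -1.15 for DNA repair. Among the leading genes, KRT7 had 5.98 in 22Rv1 and -1.30 in PC-3, and MISP had 4.38 and -1.19. CYP1A1 had -10.09 in 22Rv1 and 1.20 in PC-3, GDF15 -7.00 and 2.30, GABARAPL1 -6.51 and 2.23, TCP11L2 -5.97 and 2.44, and PDK4 -5.85 and 1.85. No group held enough arrays to look for a sample far from the others.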

How the results depend on the processing

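No paired analysis was possible because each condition had 1 array. The count of genes at least 2-fold higher was 2345 and became 10320 with the values as deposited, 4309 at 1.5-fold and 967 at 3-fold. The count of genes at least 2-fold lower was 2736 and became 356 as deposited, 4986 with each array only centred on a common median, 4925 at 1.5-fold and 1120 at 3-fold. The TNFRSF13B ratio of -2.20 was -0.45 as deposited and -2.09 with centring and of like size with loess or quantile normalization of the 22Rv1 pair. As deposited, where the median of all genes was shifted by 1.22, the list medians turned positive for p53 targets (0.46), FoxO targets (0.44), ATF4 targets (0.20) and the circadian clock (0.30). So did the ratios of CAMLG (0.06), CARS1 (0.58), CAV1 (0.49), CDK6 (0.63), KRT18 (0.02), LUM (0.47), RBL2 (0.30), TMPRSS2 (0.32) and VIM (0.59). With centring PPIA (-0.25) and RPS26 (-0.16) turned negative, and the medians of ribosomal proteins (-0.26) and androgen receptor targets (0.16) became -1.51 and -0.45. Without genes under the array medians 8 list medians changed by at least 1.5-fold. The immediate early median of -1.55 became -2.85 and the ERK feedback median of -1.50 became -2.11. TGF-beta and BMP genes went from -0.34 to 0.84, Wnt targets from -0.78 to 0.13 and NF-kappaB targets from 0.07 to 0.77. Keratins went from 0.12 to 1.30, retinoid genes from 0.01 to -0.78, and adhesion and matrix genes from -0.01 to -0.63. The direction of the other named genes past 2-fold and of the other list medians past 2-fold was the same under the alternatives run. The cause of these changes was not tested, and without replicate arrays the spread behind any ratio is unknown.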

Other observations

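Genes of transport and plasma proteins outside the lists, chosen after their values were seen, also differed. The drug exporter ABCG2 had a ratio of 4.01 (5.74 as deposited), from 13.63 with shTNFRSF13B against 9.62 with empty vector, and albumin (ALB) had 13.53 and 9.37. The epithelial sodium channel subunit SCNN1A had 6.82 and 12.19, and the tetraspanin-like protein TM4SF1 had 4.30 and 9.58. By chromosome, the 800 genes of chromosome 7 had a median ratio of -0.32, with 24.0% at least 2-fold lower and 10.4% higher, whereas the medians of the other chromosomes ran from -0.14 to 0.04. The deposited median on chromosome 7 was 0.98, and its PC-3 median was 0.10. Among runs of 15 neighbouring genes the highest median, 1.36, was that of a histone cluster on chromosome 6 from GUSBP2 to H2AC14. The 6611 probe sets with no listed symbol, controls left out, were at least 2-fold higher in 19.3% of cases and lower in 10.7%. No cause of these patterns was tested.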
